A study of Mus musculus with 4 samples.

Results

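The 59 genes described here encode enzymes that modify histones, the core subunits of the Polycomb complexes, and ATP-dependent chromatin remodellers other than the BAF complex. They were listed by name from 21887 nuclear protein-coding genes of the mouse RefSeq annotation (build mm10), and all 59 were found by symbol. No measured value entered the rule, but the list was drawn up with earlier results of these data known. By enzymatic family they comprised 11 histone deacetylases (Hdac1 to Hdac11), 14 lysine demethylases (the Kdm genes), 11 methyltransferase family genes (Kmt2, Setd, Setdb1, Nsd1 and Ash1l), 7 Polycomb genes and 12 genes of the CHD and ISWI remodellers, Bptf included. Ino80 and Atrx, remodellers of other families, and the acetyltransferase genes Kat6a and Kat6b completed the list. BRG1/BRM occupancy was measured by ChIP-seq in primary cortical neurons of wild-type mouse embryos (E16.5), with the J1 antibody, which recognizes both alternative ATPases of the BAF complex. Depolarized neurons had received 50 mM KCl for 1 h on day 6 in vitro, after 1 µM tetrodotoxin (a sodium channel blocker) and 100 µM APV (an NMDA receptor antagonist) on day 5. Basal neurons were kept at the basal KCl level, and the labels do not say whether they received the blockers. Each condition had 1 immunoprecipitated (IP) library, so no difference between KCl and basal has a replicate check, no test between them was possible, and the p-values of the island caller concern single islands within 1 library.

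Histone deacetylases remove acetyl groups and act with corepressor complexes, while demethylases and methyltransferases erase and write the lysine methylation that marks active promoters (H3K4), transcribed bodies (H3K36) or silent regions (H3K9 and H3K27). Polycomb repressive complex 2 methylates H3K27 and Polycomb repressive complex 1 ubiquitinates histone H2A, and both hold developmental genes silent. CHD and ISWI remodellers slide, space or evict nucleosomes with the energy of ATP, as the BAF complex does. Many of these genes are known for neurodevelopmental disorders in humans when mutated, and the class IIa deacetylases (Hdac4, Hdac5, Hdac7 and Hdac9) leave the nucleus of neurons when calcium signalling is active.

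Each condition was represented by a list of enriched regions (islands), with the IP reads, control reads and fold of IP over control, scaled for library size, of each. The KCl list held 20966 islands with 1433200 IP reads and the basal list 711 islands with 142021 IP reads, so a count of islands is limited by the far shorter basal list. Islands at the 59 genes held 26 to 398 IP reads in KCl and 37 to 49 IP reads in basal. The interval after a fold is the 95% exact (Clopper-Pearson) interval of IP among IP and control reads, and it covers counting error only. As a check of the culture label, KCl islands lay within 2 kb of an end of 8 of 10 cortical neuron marker genes, against 30.1% of all genes in the same length classes. With that share in parentheses, the counts were 0 of 5 for interneuron (23.6%), 2 of 5 for astrocyte (25.4%), 2 of 6 for oligodendrocyte lineage (23.7%), 0 of 5 for microglia (21.2%) and 1 of 5 for liver and muscle marker genes (19.4%).

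After depolarization BRG1/BRM islands lay at the ends of most of these chromatin genes, whereas no basal island was called there. In KCl, 36 of 59 genes (61.0%) carried an island within 2 kb of the start or the far end, against 25.2% of all protein-coding genes. In basal neurons 0 of 59 did, against 0.411% of all genes, so that the basal count is near what the whole genome showed. Inside the gene or up to 10 kb outside it, 42 of 59 genes (71.2%) had a KCl island, against 38.9% of all genes, and 2 of 59 had a basal island (Hdac9 and Chd6), against 1.68%. The 42 genes held 84 KCl islands, of which 39 lay at gene ends, 38 inside the gene and 7 in a flank. A single KCl island was called at 23 genes and 2 or more at 19.

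The difference between conditions moved with the length of the KCl list. When that list was shortened to 711 islands, the length of the basal list, 0 of 59 genes kept a KCl island at an end with ranking by p-value (0.114% of all genes) and 1 of 59, Eed, with ranking by fold (0.0685%). In the body or within 10 kb the shortened lists left 1 of 59, Hdac9, by p-value (1.52% of all genes) and 4 of 59, Hdac9, Eed, Kdm6a and Kdm7a, by fold (1.46%). At equal list length the counts in KCl were thus close to those in basal, and absence of a basal call does not show absence of binding.

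Longer genes carried islands more often, and many of these genes are long. The median length of the 59 genes was 65.0 kb. In the same length classes, all protein-coding genes carried an end island in KCl in 34.7% of cases and in the body or within 10 kb in 55.6%, against 61.0% and 71.2% of the chromatin genes. At gene ends the members' share was higher in each length class. KCl islands were present at 3 of 6 members under 20 kb (17.5% of all genes of that length), 11 of 18 of 20 to 50 kb (26.9%), 13 of 19 of 50 to 100 kb (38.5%) and 9 of 16 of 100 kb or more (45.5%). In the body or within 10 kb the order turned round for the longest genes. Islands were called for 3 of 6 members under 20 kb (25.7%), 12 of 18 of 20 to 50 kb (39.7%), 16 of 19 of 50 to 100 kb (57.8%) and 11 of 16 of 100 kb or more (82.1%). The 5 long members without a KCl island were Hdac8, Kdm4c, Nsd1, Ino80 and Atrx. Of these, Hdac8 and Atrx are X-linked, and 9.11% of all X-linked genes had such an island. The class of 100 kb or more has no upper limit, so lengths within it were not matched.

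**Figure D1:**
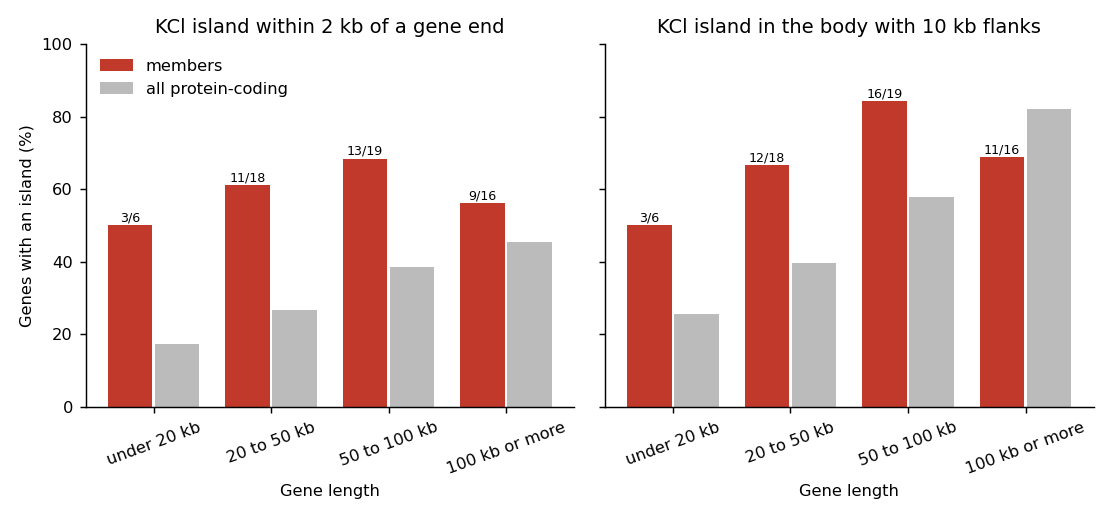
Share of genes with a KCl island (percent, vertical axis) by gene length (horizontal axis) within 2 kb of a gene end (left) and in the body with 10 kb flanks (right), with members in red and all protein-coding genes in grey; numbers above the red bars are counts of members. The red bars stand above the grey bars in every class but the longest genes on the right, where 11 of 16 members had an island.

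Islands at the ends of these genes were like those at other gene ends in strength and wider at the median. The strongest KCl end island had a median fold of 1.84 over the 36 members (interquartile range 1.66 to 2.16) and of 1.82 over all 5512 genes with such an island (1.58 to 2.18). The median width was 3000 bp in members and 2400 bp in all genes. These islands held a median of 80.5 IP and 29 control reads in members and of 71 IP and 25 control reads in all genes. The interval of the fold lay above 1 for an end island of 31 of 59 members, against 19.2% of all genes, and a fold of at least 2 was reached at 14 of 59, against 8.74%. Among genes with an end island, the share with a fold of at least 2 was 38.9% in members and 34.7% in all genes. With an FDR of at most 1e-05, 26 of 59 members kept an end island, against 15.1% of all genes. The shares of all genes at these thresholds are over genes of any length and were not taken by length class.

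**Figure D2:**
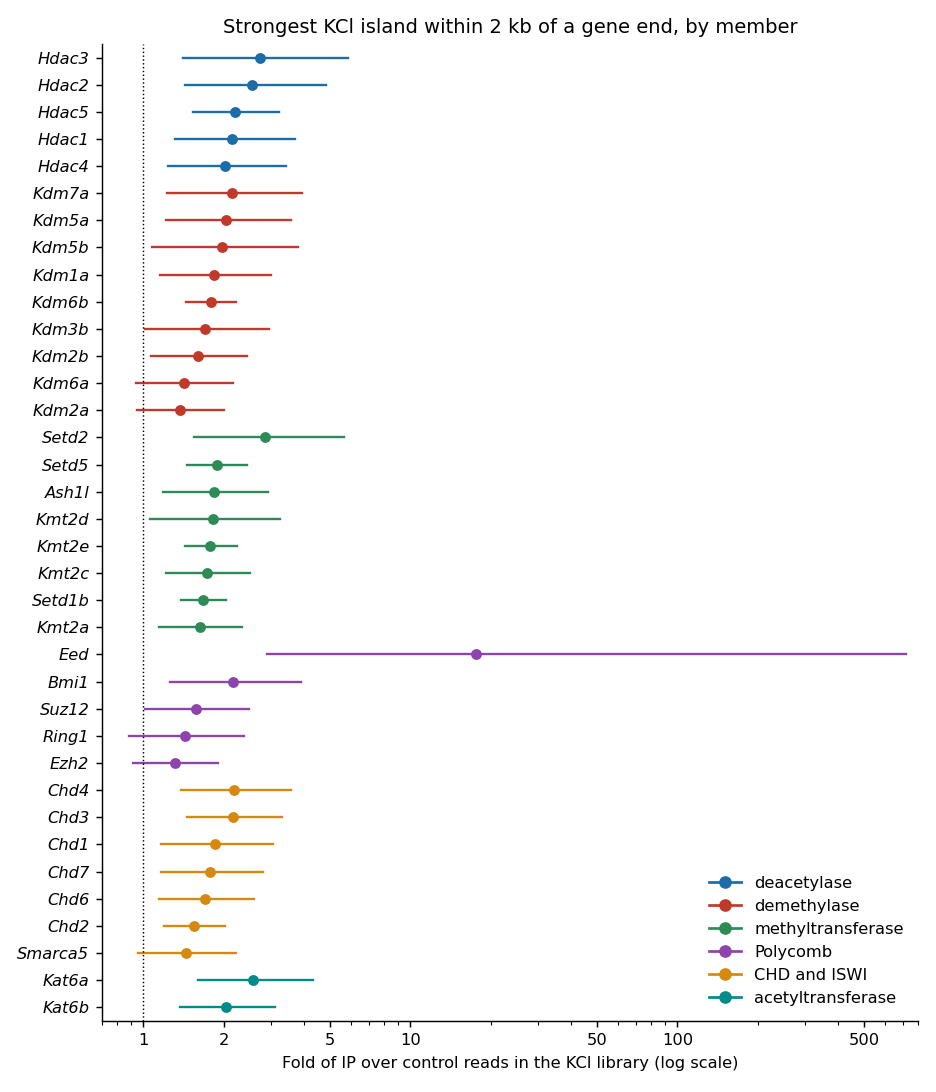
Fold of IP over control reads (horizontal log axis) of the strongest KCl island within 2 kb of a gene end for the 36 members that had one, coloured by class. Points are folds and lines the 95% exact intervals from read counts, and the dotted line marks a fold of 1. The deacetylases lie between 2.03 and 2.74, and the interval of Eed, with 1 control read, is the widest.

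Where the strand was known, most end islands lay at gene starts. The strand could be taken from RefSeq promoter entries for 42 members, and of these 22 (52.4%) had a KCl island within 2 kb of the annotated start, against 22.7% of all genes with a known strand. At the far end, 2 of 42 had an island (4.76%), against 5.08% of all genes. The 2 genes were Eed and Bmi1, and both also had an island at the start. In 19 of the 22 genes the island covered the outermost annotated start itself, while at Kdm6a, Kdm7a and Kmt2d its edge lay 0.939, 0.373 and 1.48 kb inside the gene. The islands of Kdm6a and Kmt2d did overlap a RefSeq promoter entry of the gene. Those at the outermost starts of Hdac4 and Setd5 overlapped none. The other 17 members had no entry, so for them the lower and the upper gene end by coordinate are named. Of these 17, 14 had an end island, a larger part than the 22 of 42, so the start counts rest on the less often covered members. Over all protein-coding genes the share with an end island was 25.2%, and it was not counted for those without an entry. At 11 of the 36 members (30.6%) each end island also lay within 2 kb of an end of another protein-coding gene, as at 30.1% of all genes with an end island, and these islands cannot be assigned to either gene.

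**Figure D3:**
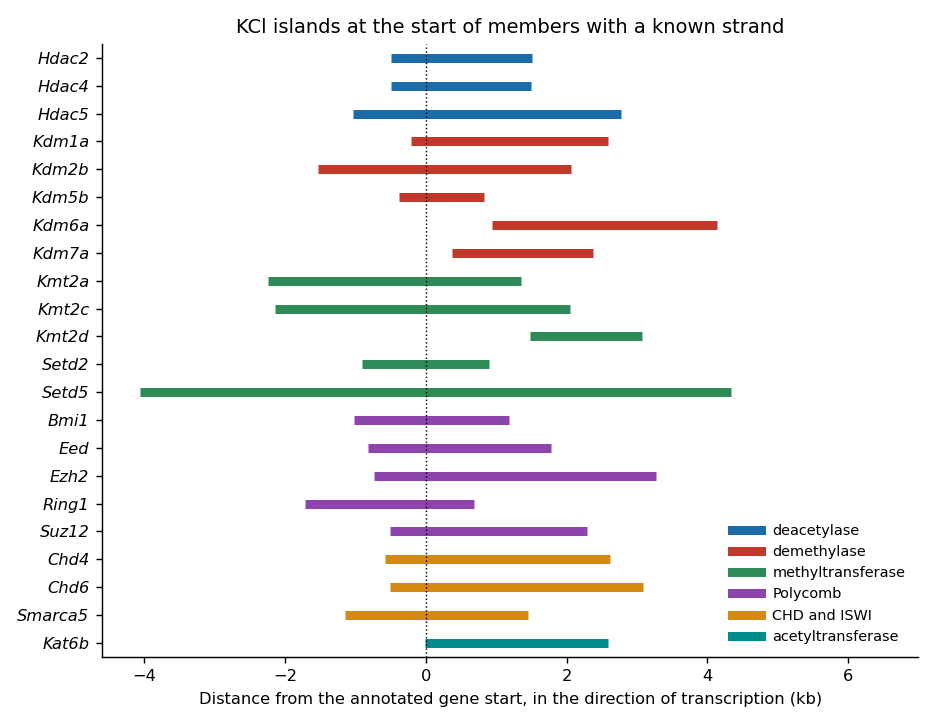
Extent of the KCl islands within 2 kb of the start of the 22 members with a known strand (bars, coloured by class), against the distance from the annotated gene start in kb in the direction of transcription. All bars but those of Kdm6a, Kdm7a and Kmt2d cross the start, and the bar of Setd5 is 8400 bp wide.

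Promoters covered by a KCl island were rich in CpG. RefSeq promoter windows, which run from 250 bases before to 50 bases after a start, were given for 42 members in 56 entries, since some genes have several starts. A KCl island overlapped 26 of the 56 windows (46.4%), against 22.3% of all 21263 windows of protein-coding genes. By gene, 21 of the 42 members had a covered window, against 3927 of 17492 over all genes. Windows of 1 gene can overlap each other, so the window counts here and below are not of independent units. The median number of CpG per window was 30 in the 26 covered member windows and 21 in the 30 others, against 25 and 8 in covered and other windows of all genes. Members had more CpG to begin with, and windows of all genes in the same CpG classes were covered in 33.9% of cases. By class, islands covered 1 of 10 member windows with under 10 CpG (5.43% of all windows), 5 of 10 with 10 to 19 (23.9%), 7 of 13 with 20 to 29 (35.9%) and 13 of 23 with 30 or more (49.4%).

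Of the motifs searched on both strands, the GC box (GGGCGG) was in 37 of 56 member windows (66.1%), against 46.2% of all windows. It was in 21 of the 26 covered member windows and in 16 of the 30 others (80.8% and 53.3%), against 71.2% of covered and 39.0% of other windows of all genes, so the contrast was found over all genes as well. The AP-1 motif (TGANTCA) was in 6 of 56 member windows (10.7%), against 6.99% of all. Of the covered windows it was in 1 of 26 in members (3.85%), against 4.01% over all genes. The cyclic AMP response element (TGACGTCA) was in 0 of 56, against 2.23% of all windows. No stretch can match more than 1 of these motifs in full. A match describes the letters and is not evidence of a bound factor.

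The 250 bases before the start are given for the deacetylase and methyltransferase genes with the strongest start islands (Hdac2, chr10:36974294-36974543, + strand; Setd2, chr9:110532347-110532596, + strand), for Eed, which has an island and no GC box (chr7:89980977-89981226, - strand), for an upstream and an internal start of Kdm2b, both under islands (chr5:122989100-122989349, - strand, and chr5:122900351-122900600, - strand), and for an internal start of Hdac9 under an island and its outermost start without one (chr12:34528890-34529139, - strand, and chr12:34917096-34917345, - strand). They are RefSeq sequence of GRCm38.p6, 5′ to 3′ in the direction of transcription, with GC boxes and AP-1 motifs of either strand in capitals.
Hdac2: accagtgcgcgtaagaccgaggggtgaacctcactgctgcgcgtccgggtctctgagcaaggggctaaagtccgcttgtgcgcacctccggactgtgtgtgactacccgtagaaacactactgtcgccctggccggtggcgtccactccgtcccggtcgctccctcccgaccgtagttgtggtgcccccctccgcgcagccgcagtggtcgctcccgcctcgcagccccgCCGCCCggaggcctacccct
Setd2: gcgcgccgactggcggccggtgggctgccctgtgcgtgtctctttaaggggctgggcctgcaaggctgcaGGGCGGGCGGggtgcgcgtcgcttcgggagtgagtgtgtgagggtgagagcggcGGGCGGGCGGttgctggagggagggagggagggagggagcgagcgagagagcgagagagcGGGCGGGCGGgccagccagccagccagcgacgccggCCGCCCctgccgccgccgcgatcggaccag
Eed: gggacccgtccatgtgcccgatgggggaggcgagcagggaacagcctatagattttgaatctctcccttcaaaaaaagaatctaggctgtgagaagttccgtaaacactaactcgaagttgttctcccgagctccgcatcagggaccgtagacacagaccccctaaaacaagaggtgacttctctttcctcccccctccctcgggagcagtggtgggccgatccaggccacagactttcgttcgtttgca
Kdm2b upstream: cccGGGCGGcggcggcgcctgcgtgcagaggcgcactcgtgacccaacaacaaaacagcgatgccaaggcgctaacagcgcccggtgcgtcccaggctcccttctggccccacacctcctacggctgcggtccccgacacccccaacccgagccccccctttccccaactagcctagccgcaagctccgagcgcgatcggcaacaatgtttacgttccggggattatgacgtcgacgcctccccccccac
Kdm2b internal: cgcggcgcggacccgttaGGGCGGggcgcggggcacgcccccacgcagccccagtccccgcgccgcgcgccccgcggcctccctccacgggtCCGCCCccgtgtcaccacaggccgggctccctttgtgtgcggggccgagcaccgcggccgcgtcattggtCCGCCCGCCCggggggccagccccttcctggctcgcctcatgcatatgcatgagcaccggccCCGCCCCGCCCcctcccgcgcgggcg
Hdac9 internal: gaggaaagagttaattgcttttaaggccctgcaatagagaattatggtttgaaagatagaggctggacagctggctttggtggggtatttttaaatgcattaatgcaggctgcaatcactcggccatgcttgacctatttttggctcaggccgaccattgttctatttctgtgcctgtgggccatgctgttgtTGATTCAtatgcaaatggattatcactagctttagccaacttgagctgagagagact
Hdac9 outermost: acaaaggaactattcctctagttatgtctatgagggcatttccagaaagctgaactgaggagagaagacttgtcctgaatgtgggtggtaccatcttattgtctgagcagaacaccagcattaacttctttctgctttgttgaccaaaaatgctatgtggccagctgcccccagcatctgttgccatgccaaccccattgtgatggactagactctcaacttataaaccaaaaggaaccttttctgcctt

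The printed stretches differ widely in CpG. Those of Hdac2 and Setd2 hold 27 and 31 CpG, and those of Kdm2b hold 27 upstream and 38 at the internal start. Eed holds 12. The internal Hdac9 stretch, the only covered member window with under 10 CpG, holds 2 CpG and an AP-1 motif, and the outermost Hdac9 stretch holds 0 CpG.

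Among the deacetylases, KCl islands were at the ends of 5 of 11 genes (29.6% of all genes in the same length classes) and in or around 7 of 11 (63.6%, against 47.8%). They were called at Hdac1, Hdac2 and Hdac3, the nuclear class I enzymes of the NuRD, Sin3 and NCoR corepressors, and at the class IIa genes Hdac4 and Hdac5. The island at Hdac3 (chromosome 18, 37935001 to 37936000, lower gene end) held 48 IP and 11 control reads, 2.74-fold [1.40 to 5.85]. It lay within 2 kb of an end of Diaph1 as well. At the start of Hdac2 (chromosome 10, 36973801 to 36975800) 61 IP and 15 control reads gave 2.55-fold [1.43 to 4.84], and at the start of Hdac5 (chromosome 11, 102227401 to 102231200) 140 IP and 40 control reads gave 2.20-fold [1.54 to 3.21]. The island at Hdac1 (chromosome 4, 129513201 to 129515800, lower end, also near an end of Marcksl1) held 72 IP and 21 control reads, 2.15-fold [1.31 to 3.69]. None of these had a basal island, and their intervals overlap, so the KCl folds do not order them.

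Hdac4, a class IIa repressor of MEF2 factors, had 3 KCl islands and no basal island. The island at its annotated start held 71 IP and 22 control reads, 2.03-fold [1.24 to 3.44]. A second covered an internal RefSeq start 15.6 kb into the gene with 91 IP and 42 control reads, 1.36-fold [0.934 to 2.01], an interval that includes 1. The third, 184 kb into the gene, was narrow and strong, with 59 IP and 6 control reads, 6.18-fold [2.67 to 17.5]. Hdac7 had its only KCl island in the flank, at an end of Slc48a1 (2.26-fold [1.39 to 3.80]). Hdac6, a cytoplasmic tubulin deacetylase, Hdac8, Hdac10 and Hdac11 had no KCl island in the body or within 10 kb.

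Hdac9, which encodes the fourth class IIa enzyme, held the most islands of all members. It spans 869.5 kb on chromosome 12 (34047580 to 34917095, minus strand) and carried 15 KCl islands, all inside the gene and none within 2 kb of an end. The 227 protein-coding genes of 500 kb or more had a median of 8 KCl islands, and 39 of them had more than Hdac9. Of the 15, 10 lay between 320 and 550 kb from the annotated start, a stretch chosen from the positions of these islands. The widest of them (34495401 to 34502000) held 311 IP and 61 control reads, 3.20-fold [2.43 to 4.29], and another covered the internal start shown above (34525601 to 34529600, 144 IP and 44 control reads, 2.06-fold [1.46 to 2.95]). The largest Hdac9 fold, 11.9-fold [3.08 to 102], rested on 38 IP and 2 control reads (34217801 to 34218200).

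Hdac9 and Chd6 were the members with basal islands, and each basal island overlapped a KCl island. In Hdac9, the KCl island at 34495401 to 34502000 stood over a basal island at 34497801 to 34499600, which held 49 IP against 35 control reads, 1.59-fold [1.01 to 2.53]. A KCl island at 34568001 to 34569800 (67 IP against 12 control reads, 3.51-fold [1.88 to 7.12]) overlapped a basal island at 34568201 to 34570400 (49 IP against 26 control reads, 2.14-fold [1.31 to 3.59]). Chd6 encodes a CHD remodeller of the same subfamily as CHD7 and CHD8. Its KCl island, 64.1 kb inside the gene (chromosome 2, 161043601 to 161046400), held 105 IP and 29 control reads, 2.27-fold [1.50 to 3.56], and the basal island there (161044201 to 161045400) held 37 IP and 19 control reads, 2.21-fold [1.24 to 4.07]. Folds of the KCl and basal lists were scaled by different constants and are given side by side only. Hdac9 and Chd6 are longer than 100 kb, and 7.53% of all genes of that length had a basal island. Of the 227 genes of 500 kb or more, the range of Hdac9, 52 (22.9%) had at least 1.

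**Figure D4:**
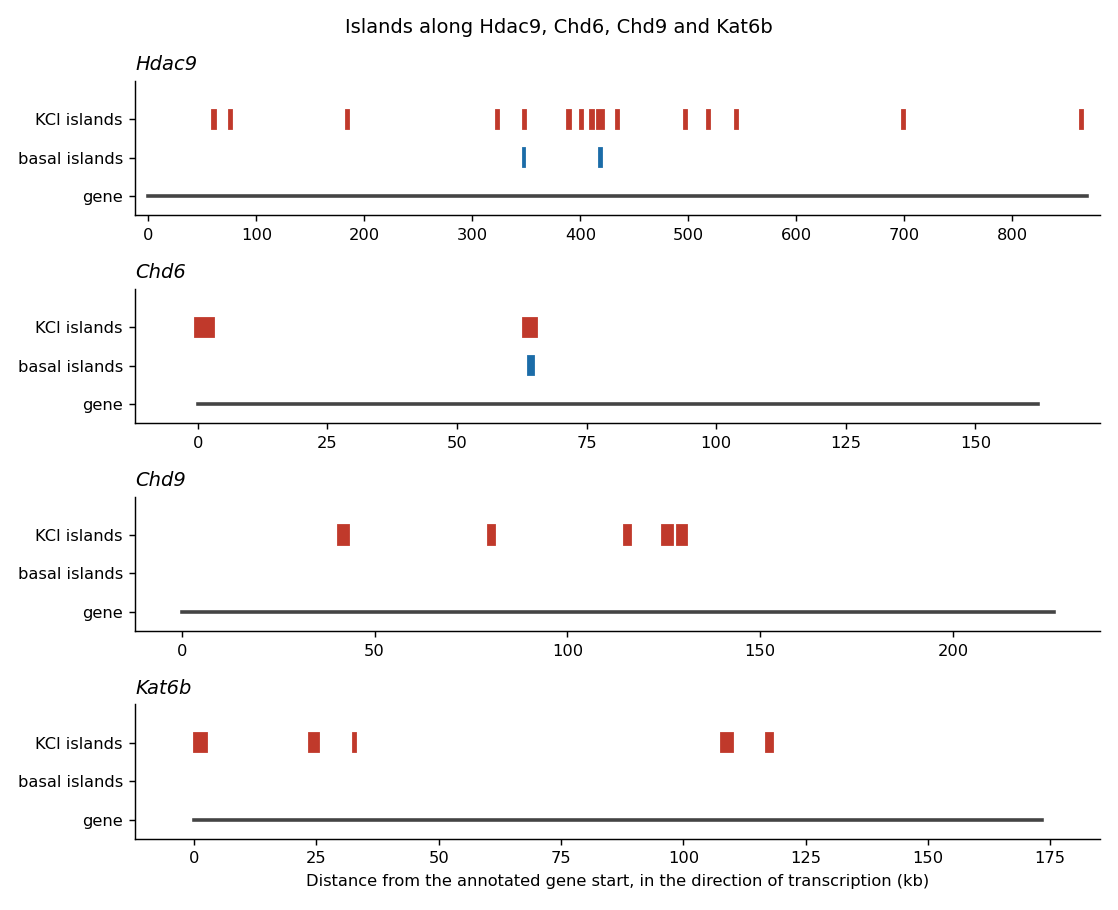
Positions of KCl islands (red, upper row) and basal islands (blue, middle row) along Hdac9, Chd6, Chd9 and Kat6b (grey line, lower row), in kb from the annotated start in the direction of transcription; narrow islands are widened to stay visible. The 2 basal islands of Hdac9 and the single basal island of Chd6 lie under KCl islands.

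Of the demethylases, 9 of 14 had a KCl island at an end (36.7% of all genes in the same length classes). In or around the gene, 10 of 14 had a KCl island (71.4%, against 57.8%). None had a basal island there, against 2.86% of all genes in those classes. Kdm7a, a PHD and JmjC domain enzyme, had 58 IP and 17 control reads near its start (2.14-fold [1.23 to 3.93], chromosome 6, 39204401 to 39206400). It had a stronger, narrow island 2.83 kb upstream of the start with 52 IP and 4 control reads (8.16-fold [3.00 to 31.1]). The H3K4 demethylase genes Kdm5a, Kdm5b and Kdm1a followed. Kdm5a held 65 IP and 20 control reads (2.04-fold [1.22 to 3.56], chromosome 6, 120363401 to 120366200, also near an end of Ccdc77). Kdm5b held 47 and 15 (1.97-fold [1.08 to 3.79], chromosome 1, 134559801 to 134561000, also near Mgat4e), and Kdm1a, the LSD1 gene, held 73 and 25 (1.83-fold [1.15 to 3.02], chromosome 4, 136600201 to 136603000). Kdm5c, an X-linked relative, had no island.

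The H3K27 demethylase genes Kdm6a and Kdm6b were both covered in KCl, in different ways. Kdm6b had an island of 11400 bp with 333 IP and 117 control reads (1.79-fold [1.44 to 2.23]) at its upper end, which also lay near an end of Dnah2. At Kdm6a the start island of 79 IP and 35 control reads had an interval that includes 1 (1.42-fold [0.941 to 2.18]), and an island 55.5 kb inside the gene was 8.16-fold enriched [2.60 to 41.3] with 39 IP and 3 control reads. Kdm2a, an H3K36 demethylase gene, was weak as well (1.37-fold [0.950 to 2.01], also near an end of 9430078G10Rik). Its paralog Kdm2b, a partner of a variant Polycomb repressive complex 1, had an island at each of its start regions. The upstream start was 1.60-fold [1.07 to 2.43] and the island over the internal start held 67 IP and 21 control reads (interval of the fold 1.21 to 3.45). Kdm3b was 1.70-fold enriched at its upper end [1.02 to 2.96], near Reep2. Kdm3a, Kdm4a, Kdm4c and Kdm5c had no island in either region, and Kdm4b had 1 in the flank, at an end of Ptprs (1.37-fold [0.861 to 2.22]).

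The methyltransferase genes had the largest share at gene ends of the 5 main classes, 8 of 11 (72.7%). Of all genes in the same length classes, 36.2% had an end island. Polycomb genes were close (71.4%), and with a window of 1 kb the methyltransferase genes (63.6%) stood below them (71.4%). In or around the gene, 9 of 11 methyltransferase genes had a KCl island (81.8%, against 57.8%). No basal island was called there, against 3.12% of all genes in those length classes. Setd2, which encodes the enzyme that trimethylates H3K36, had 59 IP and 13 control reads over its start (2.85-fold [1.55 to 5.67], chromosome 9, 110531601 to 110533400). Setd5, a SET domain gene of neurodevelopment, had a broad start island with 243 IP and 81 control reads (1.88-fold [1.46 to 2.45], chromosome 6, 113073201 to 113081600). Ash1l, which encodes an H3K36 methyltransferase, held 82 IP and 28 control reads at its lower end (1.84-fold [1.18 to 2.93], chromosome 3, 88948601 to 88951800, also near Dap3). The H3K4 methyltransferase gene Kmt2d held 55 IP and 19 control reads (1.82-fold [1.06 to 3.24], chromosome 15, 98871001 to 98872600). The relatives Kmt2a, Kmt2c, Kmt2e and Setd1b lay between 1.62 and 1.78-fold, all with intervals above 1. Setdb1, the H3K9 methyltransferase gene, had 1 KCl island in the flank, 41.0 kb from its start and near ends of Anxa9, Cers2 and LOC115489748. Setd1a and Nsd1 had none.

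Broad islands lay at some of these genes. With a width of 5 kb, chosen after the values were seen, 5 of the 36 members with an end island (13.9%) had such a broad end island, against 7.57% of the 5512 genes. These were Setd1b (13600 bp, 398 IP and 149 control reads, near an end of Rhof), Kdm6b (11400 bp), Kmt2e (10800 bp, 315 IP and 111 control reads), Setd5 (8400 bp) and Chd2 (7200 bp, 207 IP and 84 control reads). Their folds ran from 1.55 at Chd2 to 1.88 at Setd5, and each interval lay above 1.

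**Figure D5:**
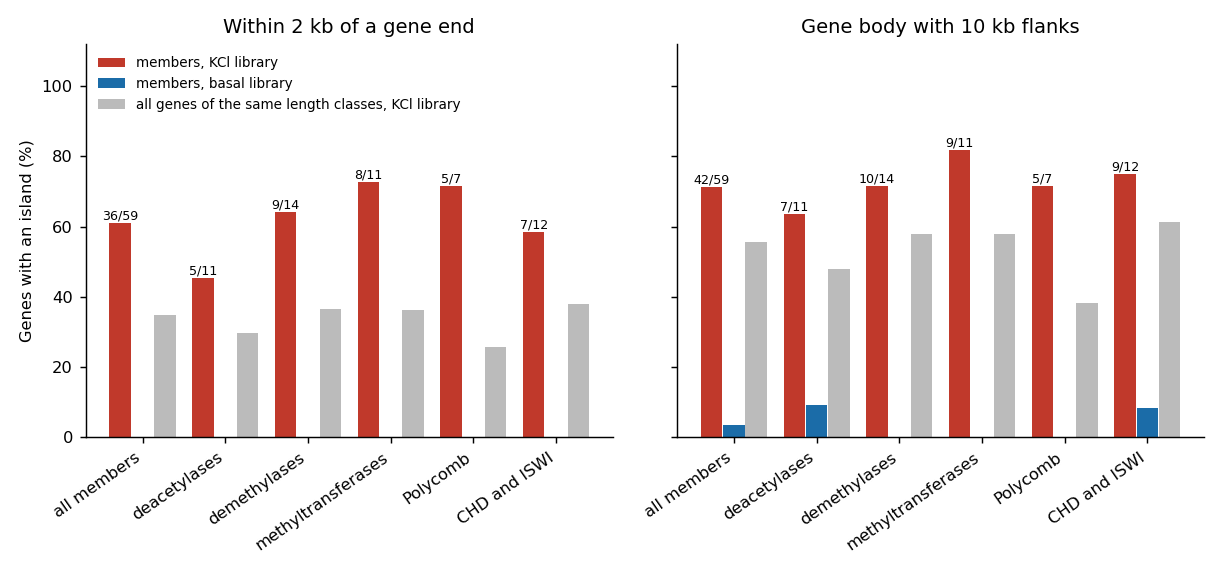
Share of genes with an island (percent) within 2 kb of a gene end (left) and in the body with 10 kb flanks (right), for all 59 members and the 5 main classes, in the KCl library (red, with counts) and the basal library (blue, 0 in every group on the left), beside the KCl share of all protein-coding genes of the same length classes (grey). The red bars exceed the grey ones in each group of both panels.

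In the Polycomb class, 5 of 7 genes carried an end island in KCl (25.8% of all genes in the same length classes). No gene of the class had a basal island in or around it, against 1.06% of all genes in those length classes. The H3K27 methyltransferase complex was represented by Ezh2, Suz12 and Eed. Eed, its scaffold, had 89 IP and 25 control reads over the start (2.24-fold [1.42 to 3.64], chromosome 7, 89979201 to 89981800). It also had a narrow island of 400 bp near the far end (89956201 to 89956600), where 28 IP reads stood against 1 control read (17.6-fold [2.91 to 719]). Suz12 was 1.57-fold enriched at its start [1.02 to 2.48] with 75 IP and 30 control reads (chromosome 11, 79992601 to 79995400), and Ezh2 was weak (1.31-fold [0.916 to 1.90]). Of the Polycomb repressive complex 1 genes, Bmi1 had 62 IP and 18 control reads over its start (2.16-fold [1.26 to 3.89], chromosome 2, 18676001 to 18678200, also near Commd3). Bmi1 had a second island at its far end (1.66-fold [1.13 to 2.50], also near Gm46725). Ring1 held 57 IP and 25 control reads (1.43-fold [0.880 to 2.39], chromosome 17, 34024001 to 34026400, also near ends of H2-Ke6 and Slc39a7). The Ring1 paralog Rnf2 and the Ezh2 paralog Ezh1 had no island.

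Of the CHD and ISWI genes, 7 of 12 carried an end island in KCl (37.9% of all genes in the same length classes) and 9 of 12 had one in or around the gene (61.4% of all genes in those classes). The NuRD ATPase genes Chd4 and Chd3 led. Chd4 had 87 IP and 25 control reads at its start (2.19-fold [1.39 to 3.56], chromosome 6, 125095401 to 125098600). Chd3 had a pair of neighbouring islands at its upper end, the stronger with 114 IP and 33 control reads (2.17-fold [1.46 to 3.30], chromosome 11, 69369601 to 69373000). Chd5, the neuronal member of that subfamily, had none in either region. Chd1 held 74 IP and 25 control reads (1.86-fold [1.17 to 3.05], chromosome 17, 15704401 to 15707000), and Chd7, the gene of CHARGE syndrome in humans, held 85 and 30 (1.78-fold [1.16 to 2.80], chromosome 4, 8691401 to 8695000). Chd2 and Chd6 were 1.55-fold [1.20 to 2.02] and 1.70-fold [1.15 to 2.59] enriched at an end.

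Of the remaining remodellers, Chd9 had no end island but 5 islands inside the gene, 1.88 to 2.59-fold and all with intervals above 1, between 41.9 and 129.7 kb from its start. The strongest held 70 IP and 17 control reads (2.59-fold [1.51 to 4.69], chromosome 8, 90868801 to 90871600). The ISWI ATPase gene Smarca5 had a weak start island (1.44-fold [0.952 to 2.22]). Bptf, the large subunit of the NURF complex, had 1 internal island whose interval includes 1 (1.69-fold [0.873 to 3.48]). Chd8, Smarca1, Ino80 and Atrx had none in either region.

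Both acetyltransferase genes, which encode the MOZ and MORF enzymes, were covered in KCl without a basal island. In the same length classes, 42.0% of all genes had an end island in KCl. In the body or within 10 kb, 69.9% had a KCl island and 4.72% a basal island. Kat6a had 90 IP and 22 control reads at its lower end (2.57-fold [1.60 to 4.30], chromosome 8, 22857801 to 22861200) and 2 further islands inside the gene. The stronger of these held 54 IP and 13 control reads (22877201 to 22879000, 2.61-fold [1.41 to 5.21]). The interval of the other includes 1 (1.49-fold [0.975 to 2.33]). Kat6b had 107 IP and 33 control reads at its start (2.04-fold [1.37 to 3.11], chromosome 14, 21499201 to 21501800). With 4 further islands inside the gene, of which the strongest held 111 IP and 22 control reads (21522601 to 21524800, 3.17-fold [1.99 to 5.26]), it reached 5 in all. Inside Kat6b, the islands at 21531801 to 21532200 and 21616201 to 21617600 had intervals that include 1 ([0.976 to 5.58] and [0.957 to 3.06]). Kat6a, Hdac4, Kdm2b and Chd7 tied at 3 islands each behind Hdac9, Chd9 and Kat6b. Both internal islands of Chd7 had intervals that include 1 ([0.921 to 1.93] and [0.905 to 3.26]).

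Between classes, the share with an end island ran from 45.5% of deacetylases to 72.7% of methyltransferases (29.6% and 36.2% of all genes in the same length classes). Among autosomal genes only, it was 55.6% of deacetylases, 66.7% of demethylases and 72.7% of methyltransferases. There it was 71.4% of Polycomb genes and 63.6% of CHD and ISWI genes, against 26.5% of all autosomal genes of any length. The fold ran differently. The median fold of the strongest end island was 2.20 in deacetylases, 1.79 in demethylases, 1.80 in methyltransferases, 1.57 in Polycomb genes and 1.78 in CHD and ISWI genes. A fold of at least 2 was held by all 5 covered deacetylases, by 2 of 9 demethylases, 1 of 8 methyltransferases, 2 of 5 Polycomb genes and 2 of 7 CHD and ISWI genes. Of all genes with an end island, 34.7% reached it. The intervals of single genes overlap across classes, and no test between classes was made. Of the 5 members whose strongest end island had an interval including 1, Kdm2a and Kdm6a are demethylases, Ring1 and Ezh2 Polycomb genes and Smarca5 an ISWI gene.

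The X-linked members stood apart, a split chosen after the values were seen. Of Hdac6, Hdac8, Kdm5c, Kdm6a, Smarca1 and Atrx, only Kdm6a had a KCl island in either region. Islands were sparse on this chromosome altogether, with an end island at 3.11% of X-linked genes and one in the body or within 10 kb at 9.11%. On autosomes, 35 of 53 members (66.0%) had an end island, against 26.5% of all autosomal genes of any length. KCl islands numbered 1.33 per Mb on the X chromosome and 8.43 per Mb on autosomes, and their median control density was 7.11 reads per kb on the X chromosome and 9.38 on autosomes. The part of control density in these counts was not tested. The sex of the embryos is not given in the sources used here.

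Other chromatin regulator genes, 86 in all and chosen by role, carried end islands in KCl at 40 (46.5%; 30.6% of all genes in the same length classes) and islands in or around 48 (55.8%; 48.5%). By role, with the share of all genes in the same length classes in parentheses, the end counts were 3 of 7 for acetyltransferases (29.8%), 2 of 7 for sirtuins (21.5%), 9 of 14 for further methyltransferases (29.8%) and 3 of 6 for further demethylases (33.4%). They were 8 of 15 for scaffolds of deacetylase complexes (32.0%) and 9 of 18 for Polycomb partners (27.3%). Remodeller ATPases and partners, 4 of 12 (34.8%), and DNA methylation genes, 2 of 7 (37.8%), lay at or below the share of all genes. The largest end folds were those of Cbx2, a Polycomb chromodomain gene (3.20-fold [1.61 to 7.08]), Rcor2, a partner of LSD1 (2.89-fold [1.64 to 5.44]), Baz2b (2.86-fold [1.70 to 5.07]) and the corepressor scaffold gene Sin3a (2.32-fold [1.24 to 4.67]). Basal islands were called at Ncor1, the corepressor that activates HDAC3, and in Smyd3. In or around the gene that is 2 of 86 (2.33%), near the 2.49% of all genes in the same length classes. At gene ends the basal count was 1 of 86 (1.16%, against 0.497%). The KCl island at the Ncor1 start held 128 IP and 46 control reads (1.75-fold [1.24 to 2.50]) and the basal island under it 54 IP and 28 control reads (2.19-fold [1.36 to 3.59]), near an end of Pigl as well. In Smyd3 the KCl island held 156 and 33 reads (2.97-fold [2.03 to 4.46]) and the basal island under it 48 and 30 reads (1.82-fold [1.13 to 2.97]). BAF subunit genes, for comparison, carried end islands in KCl at 15 of 28 (30.2% of all genes in the same length classes) and in basal at 0 of 28 (0.487%).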

How the data were processed

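BRG1/BRM ChIP-seq of depolarized (KCl) and basal cortical neurons comprised 4 samples, an IP and an input library per condition, grouped by their titles. Island lists of the 2 IP libraries were analysed, and no other file of the inputs was used here. The submitters' processing notes name BWA, SICER 1.0 and mm10 (GRCm38). Window 200 bp, gap 600 bp and FDR 0.01 stand in the names of the deposited files. Each list was called on 1 IP library. The deposited columns give per island the unnormalized read count of the IP and that of the control, the p-value of the IP count against the scaled control, its FDR, and the fold. The deposited fold is the IP count over the control count, a ratio that was then divided by 1 constant per library, 1.59 for KCl and 0.880 for basal. It takes the control as exact, whereas the intervals here let both counts vary. Total depth could not be recovered, and which input served as control is not given in the sources used here.

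Coordinates were made 1-based. Genes were the 21887 nuclear protein-coding genes of RefSeq GRCm38.p6. Islands were assigned by at least 1 bp of overlap to windows of 2 kb around both gene ends and to gene bodies with 10 kb flanks, with Python 3.11.15, pandas 2.3.3 and scipy 1.17.1. The code was tested on planted islands, and its counts equalled those of bedtools 2.31.1 for 21887 of 21887 genes. Shares in the same length classes are means, over a list, of the share of all genes in each gene's own class (breaks at 20, 50 and 100 kb), and stand in for random genes of matched length, which were not drawn. Strand and promoter windows came from RefSeq promoter entries.

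The members and lists were chosen with earlier results of these data known. Full values were given for the 4 members of each class with the largest KCl end fold and every member with a basal island. For the members with the most KCl islands, the number and the strongest island were given. Members whose strongest end island had an interval including 1 were given with fold and interval. The fourth place by number of islands was a tie of 4 genes. Of the other regulators, the 4 with the largest end fold and those with basal islands were named. The alternatives were an FDR of at most 1e-05, a fold of at least 2, an interval above 1, an overlap of 200 bp, leaving out the 1% of islands with the highest control density, other windows and flanks, the gene start only, KCl lists of basal length and, added after the data were seen, autosomal genes only.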

Additional observations from a re-analysis of the deposited data

How the results depend on the processing

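Counts within 1.5 times the main count were taken as unchanged. Shares of all genes under these alternatives are over genes of any length, not over the same length classes. The count of 36 members with a KCl end island was within that range under 7 of 11 alternatives, running from 26 with an FDR of at most 1e-05 to 38 with a window of 5 kb. The count was 14 with a fold of at least 2 (8.74% of all genes) and 22 of the 42 members with a known strand at the gene start only (22.7%). With the KCl list shortened to basal length it was 0 by p-value (0.114%) and 1 by fold (0.0685%). Of the classes, an FDR of at most 1e-05 left 4 of 14 demethylases and 2 of 7 Polycomb genes (28.6% each), against 15.1% of all genes. A fold of at least 2 left 2 of 14 demethylases (14.3%), 1 of 11 methyltransferases (9.09%), 2 of 7 Polycomb genes (28.6%) and 2 of 12 CHD and ISWI genes (16.7%). The share of all genes was 8.74%, so that of the methyltransferases was near it. An interval above 1 left 3 of 7 Polycomb genes (42.9%), against 19.2% of all genes. At the gene start only there were 3 of 8 deacetylases, 5 of 9 demethylases, 5 of 7 methyltransferases and 3 of 8 CHD and ISWI genes. These are the fewer genes with a known strand, and 22.7% of all such genes had a start island. The list shortened by p-value left 0 in each of the 5 classes, and that shortened by fold left 0 in each class but Polycomb (1). In the body or within 10 kb, 42 members became 24 with a fold of at least 2 (21.7% of all genes). They became 1 with the list shortened by p-value (1.52%) and 4 by fold (1.46%), while 50 kb flanks gave 48, against 59.4% of all genes. The 2 members with basal islands became 1, Hdac9, with an FDR of at most 1e-05 (0.484% of all genes). The count of 0 with basal end islands could have changed under the window of 5 kb alone, and was 0 there too. No paired analysis was possible because each condition had 1 IP library. The smallest island held 20 IP reads in KCl and 18 in basal, and the part of depth in the length of either list was not tested.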

Other observations

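The 17 members without a KCl island in the body or within 10 kb differed in how far the nearest island lay. It was 13.7 kb away for Ezh1, 14.2 kb for Chd5, 20.3 kb for Hdac10, 20.8 kb for Chd8 and 25.6 kb for Rnf2. For the autosomal genes Kdm3a, Kdm4a, Setd1a, Hdac11, Ino80, Nsd1 and Kdm4c it was 43.4 to 174 kb away, in that order at 43.4, 51.8, 74.3, 79.7, 122, 145 and 174 kb. The X-linked genes Smarca1, Hdac6, Kdm5c and Hdac8 were 276 to 643 kb from an island, and Atrx was 72.2 kb from one.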
